A study of Mus musculus with 151 samples.

Results

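Expression of 10 genes of ovarian steroid hormone synthesis was examined in mice conceived naturally or by in vitro fertilization (IVF). The 10 genes were taken by name from 35976 gene names counted in each table of RNA-seq reads, and each was found in all 7 tables. They are Star, Cyp11a1, Fdx1, Fdxr, Hsd3b1, Cyp17a1, Cyp19a1, Hsd17b1, Hsd17b7 and Srd5a1. The rule that names them uses no expression value.

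Natural offspring were the female young of CF-1 females mated with B6/SJL males in a natural cycle, and their embryos developed in vivo without transfer. For the IVF group, oocytes of superovulated CF-1 females were fertilized with sperm of B6/SJL males, grown in culture to the blastocyst stage at reduced oxygen, and transferred to pseudopregnant CF-1 females. The IVF group therefore differs from Natural in superovulation of the mother, fertilization, culture and transfer together, and young of both groups were delivered by cesarean section and fostered. Ovaries were sequenced at E18.5 (4 Natural and 6 IVF), at 12 weeks (4 and 5) and at 39 weeks (5 and 5). Per the study's methods, RNA came from only a part of each adult ovary but from the whole gonad at E18.5. In adult ovaries, the part taken and the animal cannot be told apart. Cumulus cells (5 and 5) and single oocytes (36 and 40) of superovulated females were sequenced at 12 weeks. Single oocytes at 39 weeks (9 and 10) and pools of 100 primordial germ cells (PGCs) at E13.5 (4 and 5) were sequenced too. For females whose serum hormones were measured the study's methods give proestrus, but whether these are the sequenced females, and the estrous stage of the sequenced ovaries, was not given in the sources used here. In the 39-week group Natural replicate 5 carries a label of 40 weeks beside a title of 39 weeks. For the IVF fetuses the sources name E19.5 as well as E18.5, so a difference of a day in collection cannot be told apart from conception at this age.

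Steroid hormones of the ovary are built from cholesterol. The protein encoded by Star delivers cholesterol to the inner mitochondrial membrane, where Cyp11a1 cleaves its side chain with electrons passed on by Fdxr and Fdx1, and Hsd3b1 turns the product into progesterone, the main steroid of the corpus luteum. In the growing follicle the theca cells carry Cyp17a1, which makes androgens, and the granulosa cells carry Cyp19a1, the aromatase that converts androgens to estrogens, while Hsd17b1 and Hsd17b7 reduce estrone to estradiol and Srd5a1 reduces testosterone and progesterone to dihydro forms.

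The genes lie on 7 chromosomes of the mm10 genome. In the GENCODE M21 annotation, Star spans chr8:25806555-25815982, Cyp11a1 chr9:58006411-58027023, Fdx1 chr9:51943306-51963556, Fdxr chr11:115268024-115277050 and Hsd3b1 chr3:98852194-98859794. Cyp17a1 spans chr19:46667165-46673172, Cyp19a1 chr9:54165937-54268110, Hsd17b1 chr11:101078411-101080527, Hsd17b7 chr1:169949535-169969241 and Srd5a1 chr13:69573449-69611442. Counts were made over exons. Cyp11a1 shares 145 bases of exon with the noncoding gene Gm17322 and Srd5a1 shares 476 with Gm17108, both on the same strand, and Hsd3b1 has near-identical relatives such as Hsd3b6 and Hsd3b2, so reads of these genes could have been split or lost.

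Promoter sequence was found for 7 of the 10 genes in the RefSeq table for GRCm38.p6, with 10 start sites between them. The 250 bases before each start were searched on both strands for AAGGTCA, the site bound by the steroidogenic factors of the NR5A family, for TATAAA, the TATA box, and for TGACG, part of the cAMP response element. AAGGTCA was in none of the 10 windows and is in 4.08% of the windows of 32851 promoters, whereas TATAAA is in 12.4% and TGACG in 17.8% of them. Printed below, 5′ to 3′ and each ending at the base before the start, are Hsd3b1 and Fdx1, whose levels varied together in adult ovaries, and Cyp19a1 and Hsd17b7, whose levels differed widely between adult ovaries. Of the 10 windows, 4 held 1 or more of these motifs and 6 held none. Among those not printed, Cyp11a1, whose level also varied with that of Fdx1, has TGACG at positions -50 to -46 from start 1. For Cyp19a1 start 2 is printed. Its start 1 has no match, and its start 3 has TATAAA on the opposite strand at -157 to -152 and -143 to -138. Capitals mark TATAAA or TGACG. In Cyp19a1 the capitals cover TATAAA on both strands at positions -31 to -24 from a start inside the annotated gene, and in Hsd17b7 they cover TGACG at positions -46 to -42. A match is a description of the letters, and counts per gene do not tell which start was used.
Hsd3b1, chr3:98859795-98860044, minus strand: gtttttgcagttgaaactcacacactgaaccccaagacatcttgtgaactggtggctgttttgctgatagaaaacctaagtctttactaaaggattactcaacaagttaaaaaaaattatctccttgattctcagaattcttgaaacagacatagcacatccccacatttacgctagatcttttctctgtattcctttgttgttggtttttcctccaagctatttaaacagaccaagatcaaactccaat
Fdx1, chr9:51963603-51963852, minus strand: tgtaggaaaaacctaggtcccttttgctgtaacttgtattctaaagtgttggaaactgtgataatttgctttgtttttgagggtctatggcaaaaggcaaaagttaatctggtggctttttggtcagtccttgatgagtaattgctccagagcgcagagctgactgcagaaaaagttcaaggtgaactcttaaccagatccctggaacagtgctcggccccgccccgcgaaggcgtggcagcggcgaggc
Cyp19a1, chr9:54228915-54229164, minus strand: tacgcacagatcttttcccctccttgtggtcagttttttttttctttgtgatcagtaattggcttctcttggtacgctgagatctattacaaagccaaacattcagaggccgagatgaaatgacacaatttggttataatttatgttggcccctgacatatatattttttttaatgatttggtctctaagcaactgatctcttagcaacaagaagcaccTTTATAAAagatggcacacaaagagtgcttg
Hsd17b7, chr1:169969206-169969455, minus strand: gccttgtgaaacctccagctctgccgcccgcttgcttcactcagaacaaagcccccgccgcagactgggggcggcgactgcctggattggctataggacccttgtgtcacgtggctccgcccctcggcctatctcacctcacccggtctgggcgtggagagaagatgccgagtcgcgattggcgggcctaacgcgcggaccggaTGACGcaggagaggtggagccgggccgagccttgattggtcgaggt

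Library totals ranged from 6995713 to 14830788 counts in E18.5 ovaries, from 18079970 to 38751638 in 39-week ovaries and from 2532824 to 6345249 in cumulus cells. At 12 weeks the ovaries ranged from 2839022 to 43363799, and the lowest was IVF replicate 4. Levels are given as CPM, the counts of a gene per 1000000 counts of the library, with library sizes scaled by TMM within a table. Markers of the labelled cells were present: summed oocyte markers reached a median of 23938 CPM in Natural 12-week oocytes, and germ cell markers reached at least 2756 CPM in every PGC library.

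To compare levels between genes, CPM were divided by the length of each gene's exons (CPM per kb). In every adult ovary group the order of the medians began with Hsd3b1, then Cyp11a1, then Star. The median level of Hsd3b1 was 2438 CPM per kb in Natural ovaries at 12 weeks and 4039 at 39 weeks, and that of Cyp11a1 was 1347 and 2068. Star followed with 672 and 1811, and Fdx1 with 215 and 329. The group ranges of neighbouring genes overlapped in part: at 12 weeks the Natural ovaries reached from 852 to 1756 CPM per kb for Cyp11a1 and from 584 to 1027 for Star. Lowest in Natural adult ovaries were Cyp19a1 and Cyp17a1, with medians of 2.70 and 1.31 CPM per kb at 12 weeks. Cumulus cells, the granulosa cells that surround the ovulated oocyte, had the highest level of Hsd3b1, with a median of 6400 CPM per kb in Natural and 5882 in IVF. Star was far lower there, with medians of 29.2 and 37.1 CPM per kb. Per the study's methods, cumulus and ovary libraries were made by different protocols. In comparing their levels, protocol and cell type cannot be told apart. In E18.5 ovaries Hsd3b1 and Fdxr led, at 12.6 and 12.5 CPM per kb in Natural.

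**Figure D1:**
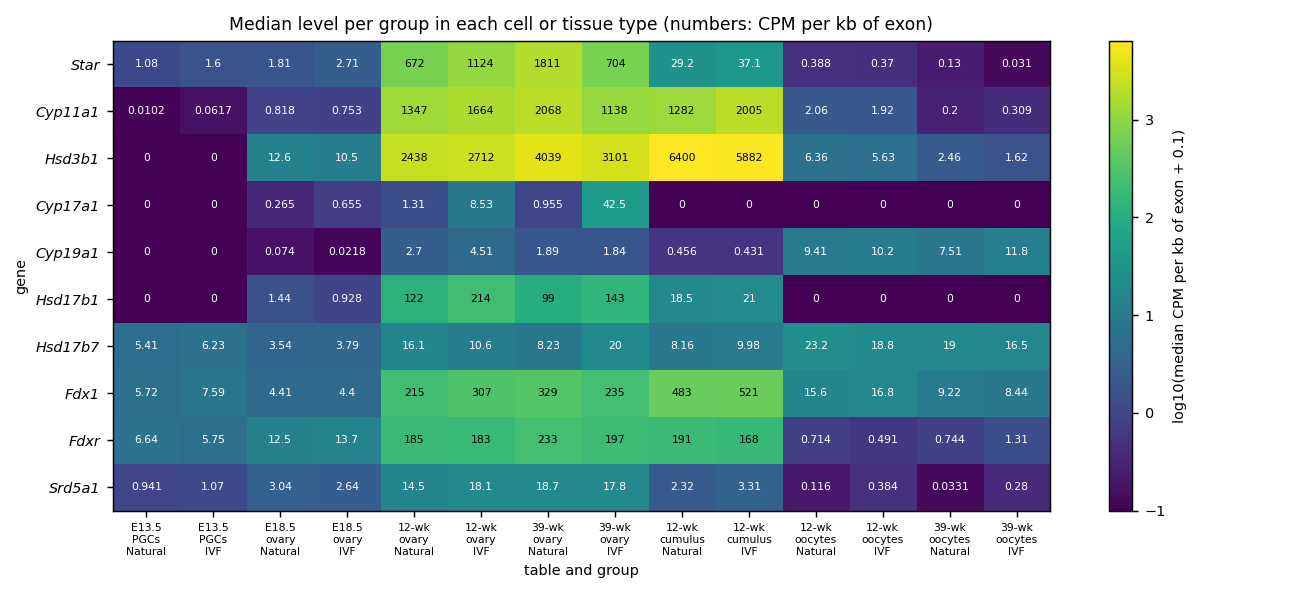
Median level of each steroidogenesis gene per tissue and group in CPM per kb of exon, with the value printed in each cell and a log10 colour scale. Hsd3b1 and Cyp11a1 lead in adult ovaries and cumulus cells, where Cyp17a1 is at 0 in the cumulus cells.

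In fetal ovaries Star and Cyp17a1 were higher in IVF than in Natural. At E18.5, 2 of the 9 genes tested were called, both higher in IVF, against 5.43% of all genes tested in either direction and 2.67% called higher. Cyp19a1 had 0 to 6 counts per ovary and was not tested. The median log2 fold change of the 9 genes was 0.03, beside 0.00 over all genes tested.

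Star was measured at 7.66, 7.35, 5.39 and 7.51 CPM in the 4 Natural ovaries. In the 6 IVF ovaries its lowest, median and highest values were 9.81, 11.2 and 14.4 CPM. All 6 IVF ovaries lay above all 4 Natural ovaries. The means were 6.97 ± 1.07 (SD, n = 4) and 11.5 ± 1.74 CPM (SD, n = 6), from 54 to 146 counts per library. On the log2 scale the difference was 0.72 ± 0.19 (SE), with an adjusted p of 0.0420 by edgeR's quasi-likelihood test. The 2-sided exact permutation p was 0.00476, which is the smallest that 4 against 6 allow.

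Cyp17a1 gave few reads at this age, with 6 to 14 counts per library in Natural and 14 to 27 in IVF. The Natural ovaries held 0.832, 0.635, 0.598 and 0.947 CPM, and the IVF ovaries held 1.51, 1.81 and 2.26 CPM as their lowest, median and highest values. Again all 6 IVF ovaries lay above all 4 Natural ovaries. The log2 difference was 1.28 ± 0.34 (SE), with an adjusted p of 0.0450 by edgeR and of 0.0285 by DESeq2. Groups that did not overlap in either direction were seen in 8.61% of all genes tested, and in 4.28% with IVF above.

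By DESeq2 the adjusted p of Star was 0.00699, whereas both edgeR calls stood close to the threshold of 0.05. The call of Star was lost on leaving out any of the 6 IVF ovaries or Natural replicate 2, 3 or 4, with adjusted p values up to 0.0948 in edgeR, and its log2 difference then ranged from 0.61 to 0.76. That of Cyp17a1 was kept only without IVF replicate 3 or Natural replicate 1, and its log2 difference ranged from 1.18 to 1.41 with adjusted p values up to 0.129 in edgeR. Markers of other cells differed between the same ovaries. Oocyte markers summed to 27.1 to 169 CPM in IVF and 169 to 581 CPM in Natural, and 4 of the 8 were called lower in IVF, namely Zp1, Zp3, Gdf9 and Ooep. Of 5 erythroid markers 2 were called higher, Hbb-bs and Alas2, and the list summed to 1601 to 4580 CPM in IVF and 598 to 1600 CPM in Natural. Granulosa markers summed to 261 to 357 CPM in IVF and 194 to 385 CPM in Natural, and no marker of the list was at 0 throughout. In whole ovaries, fewer cells of a type and less RNA per cell cannot be told apart. Without IVF replicates 2 and 4, the 2 lowest in oocyte markers, the log2 differences were 0.65 for Star and 1.24 for Cyp17a1, and neither was called (adjusted p of 0.151 and 0.143 by edgeR). The part of these cells in the differences was not tested.

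Among the other genes of fetal synthesis, Hsd17b1 pointed the other way. Its Natural values were 1.5, 2.36, 1.5 and 4.40 CPM, and its IVF values were 1.12, 1.24 and 1.83 CPM at the lowest, median and highest. The highest value was that of Natural replicate 4, and 4 of the 6 IVF ovaries lay below all Natural ovaries. The log2 difference of -0.81 ± 0.38 (SE) was not called, with an adjusted p of 0.204 by edgeR. Hsd3b1 ranged from 9.97 to 34.9 CPM in Natural and from 9.15 to 23.9 CPM in IVF, and the groups overlapped. The log2 differences of Cyp11a1 (0.03), Hsd3b1 (-0.34), Fdx1 (-0.06), Fdxr (0.13), Hsd17b7 (0.08) and Srd5a1 (-0.22) did not pass the test.

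The rest of the pathway was described by 3 wider lists. Of 17 tested genes among other steroid enzymes and their electron donors, 2 were called, both lower in IVF: Hsd17b10, with a log2 difference of -0.41, and Cyb5a, with -0.59. Cyb5a encodes cytochrome b5, which assists the lyase step of Cyp17a1. Of 15 tested genes that supply cholesterol, Tspo, an outer mitochondrial membrane protein, was called lower, with a log2 difference of -0.61. Of 17 tested regulators, Lhcgr, the receptor for luteinizing hormone that theca and luteal cells use, was called higher, with a log2 difference of 2.33 ± 0.51 (SE) and an adjusted p of 0.0241 by edgeR. Lhcgr is also the 1 of 6 luteal markers that was called at this age. With 5.43% of all genes called, 1 or 2 calls in a list of this size is near the share of all genes.

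**Figure D2:**
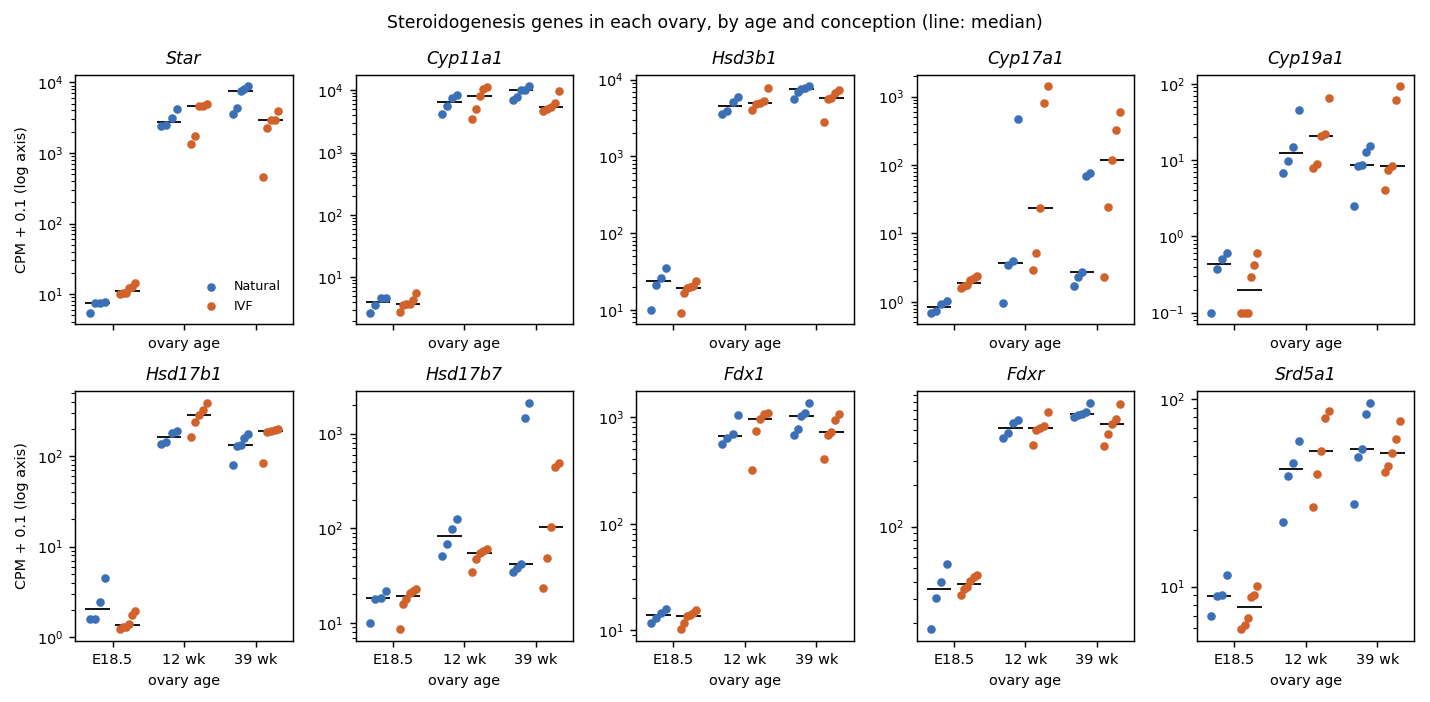
CPM + 0.1 of each steroidogenesis gene in every ovary on a log axis, by age, with Natural in blue, IVF in orange and a line at each group's median. Star and Cyp17a1 separate the groups at E18.5, and at 39 weeks 4 of 5 IVF ovaries have less Star than every Natural ovary.

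At 12 weeks no steroidogenesis gene was called in the ovary. Of the 10 genes 0 were called by edgeR and 0 by DESeq2, against 0.00567% of all genes called by edgeR and 3.45% by DESeq2. An unadjusted edgeR p below 0.05 was found for 2 of the 10 genes and for 14.4% of all genes. In 9 of 10 genes the log2 fold change was above 0, with a median of 0.24 beside 0.01 over all genes tested.

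Hsd17b1, which makes estradiol in granulosa cells, had the smallest p. Its values were 182, 135, 189 and 144 CPM in Natural and 287, 239, 390, 320 and 164 CPM in IVF. Every IVF ovary except replicate 5 lay above all Natural ovaries. The log2 difference was 0.78 ± 0.23 (SE), with adjusted p values of 0.197 by edgeR and 0.0517 by DESeq2. The exact permutation p was 0.0397 where the smallest possible is 0.00794. Granulosa markers summed to 2106 to 4991 CPM in the same IVF ovaries and to 1508 to 2446 CPM in Natural, where 3 of 8 had an unadjusted edgeR p below 0.05 and 0 were called, and their part in the difference was not tested.

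Hsd17b7, which also acts in cholesterol synthesis, was the gene that pointed down. Natural ovaries had 50.9, 67.8, 124 and 97.0 CPM and IVF ovaries 61.0, 34.2, 46.9, 54.1 and 57.7 CPM. The groups overlapped through Natural replicate 1. Its log2 difference of -0.74 ± 0.25 (SE) had an adjusted p of 0.242 by edgeR.

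The mitochondrial steps differed by less than their spread. Star was measured at 2449, 3077, 2401 and 4225 CPM in Natural and at 4624, 1714, 4688, 1321 and 4920 CPM in IVF. The IVF ovaries fell on both sides of Natural, with 3 above all Natural ovaries and 2 below. Its log2 difference was 0.19 with a 95% interval of -0.71 to 1.08 in edgeR. Cyp11a1 differed by 0.26 (-0.54 to 1.06), Hsd3b1 by 0.22 (-0.28 to 0.73), Fdx1 by 0.19 (-0.55 to 0.93) and Fdxr by 0.01 (-0.33 to 0.36), and Srd5a1 by 0.47 (-0.35 to 1.29).

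Cyp17a1 and Cyp19a1 varied most among the 12-week ovaries. Cyp17a1 was at 3.42, 0.857, 3.85 and 469 CPM in Natural and at 5.04, 2.83, 23.6, 1435 and 801 CPM in IVF. A single Natural ovary carried most of that group's Cyp17a1. The log2 difference of 1.92 ± 2.07 (SE) became 7.30 without Natural replicate 4 and was at least 0.78 without any other ovary, and none of these passed the test. Cyp19a1 had 14.8, 6.60, 9.56 and 45.8 CPM in Natural and 21.9, 7.75, 8.70, 65.3 and 20.4 CPM in IVF, and its log2 difference was 0.30 ± 0.72 (SE).

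Sums of some marker lists differed between the 12-week groups. Markers of oviduct and other epithelium summed to 3188 to 7536 CPM in Natural and to 16.3 to 3017 CPM in IVF, with no overlap, as 6.09% of single genes showed in either direction. None of the 7 was called, and 3 had an unadjusted edgeR p below 0.05. Ovgp1 alone was at 2747 to 6308 CPM in Natural and at 2.35 to 2588 CPM in IVF. Cumulus expansion markers summed to 16.0 to 25.3 CPM in Natural and 6.09 to 11.6 CPM in IVF. The part of cells with these markers in the differences of the 10 genes was not tested. In the wider lists no gene was called at 12 weeks, and the largest differences were Hsd11b1 at -1.27, Abca1 at 0.66 and Prkar2b at 0.88 on the log2 scale.

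At 39 weeks Star was lower in IVF ovaries by DESeq2 and did not pass edgeR's test. Of the 10 genes 0 were called by edgeR, where 0.262% of all genes were, and 1 by DESeq2, where 6.75% were in either direction and 3.63% lower. In edgeR 2 of 10 had an unadjusted p below 0.05, as did 19.2% of all genes. The log2 fold change was above 0 in 3 of 10 genes, and the median was -0.32 beside 0.03 over all genes tested.

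Star was measured at 7449, 3527, 8150, 4336 and 8894 CPM in Natural and at 2248, 462, 2927, 2894 and 3978 CPM in IVF. Only IVF replicate 5 reached into the Natural range. The means were 6471 ± 2391 (SD, n = 5) and 2502 ± 1298 CPM (SD, n = 5). The log2 difference was -1.37 ± 0.48 (SE), with adjusted p values of 0.180 by edgeR and 0.0360 by DESeq2, and an exact permutation p of 0.0159. Leaving out each ovary in turn gave log2 differences from -1.60 to -1.10.

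Cyp11a1 followed in the same direction. Natural ovaries had 11764, 7704, 10165, 7008 and 9934 CPM and IVF ovaries 4642, 6141, 5467, 4927 and 9701 CPM. Here too IVF replicate 5 was the one that reached the Natural range. The log2 difference was -0.59 ± 0.25 (SE), with an adjusted p of 0.232 by edgeR. Fdxr was below all Natural ovaries in 4 of 5 IVF ovaries as well, with a log2 difference of -0.29 (95% interval -0.67 to 0.09). For Hsd3b1 it was -0.36 (-0.91 to 0.19) and for Fdx1 -0.37 (-0.96 to 0.21).

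Luteal markers summed to 5866 to 13667 CPM in Natural and to 1647 to 9038 CPM in IVF, and these ranges overlapped. Of the 6 markers 5 had a negative and 1 a positive log2 difference, 1 had an unadjusted edgeR p below 0.05 and 0 were called. No luteal marker was at 0 in either group. Granulosa markers summed to 804 to 2594 CPM in Natural and 1634 to 4330 CPM in IVF, where 5 of 8 had an unadjusted edgeR p below 0.05 and 0 were called. The part of luteal and granulosa cells in the differences of Star and Cyp11a1 was not tested. Oviduct markers reached 8535 CPM in IVF replicate 1, beside at most 186 CPM in Natural.

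The later steps ran the other way or showed no common direction. Cyp17a1 was at 1.59, 2.64, 68.5, 2.22 and 75.6 CPM in Natural and at 2.19, 605, 24.2, 328 and 118 CPM in IVF. Of the IVF ovaries 3 lay above all Natural ovaries and 2 within their range. The log2 difference was 2.84 ± 1.44 (SE), with an adjusted p of 0.302 by edgeR.
Cyp19a1 was at 2.44, 8.53, 12.7, 8.15 and 15.1 CPM in Natural and at 3.99, 93.9, 8.31, 60.6 and 7.29 CPM in IVF. IVF replicates 2 and 4 were high in both genes and the other 3 IVF ovaries lay within the Natural range of Cyp19a1. Its log2 difference of 1.89 ± 0.86 (SE) had an adjusted p of 0.260 by edgeR.
Hsd17b7 had 42, 38.1, 1463, 34.2 and 2129 CPM in Natural and 23.0, 48.5, 442, 102 and 484 CPM in IVF. The high ovaries were Natural replicates 3 and 5, and the log2 difference was -1.75 ± 1.30 (SE). Hsd17b1 was above all Natural ovaries in 4 of 5 IVF ovaries, with a log2 difference of 0.32 ± 0.26 (SE), and Srd5a1 differed by -0.17, and neither passed the test.

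In the wider lists no gene was called at 39 weeks. The largest log2 differences were Hsd11b1 at -1.52, Tspo at -0.85 and Nr5a2, a nuclear receptor that activates steroid genes in granulosa and luteal cells, at 1.03. Lhcgr was at 31.5, 32.1, 331, 57.4 and 613 CPM in Natural and at 56.8, 437, 402, 286 and 260 CPM in IVF. Natural replicates 3 and 5, which were high in Hsd17b7 and carried Cyp17a1, were also the Natural ovaries high in Lhcgr.

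**Figure D3:**
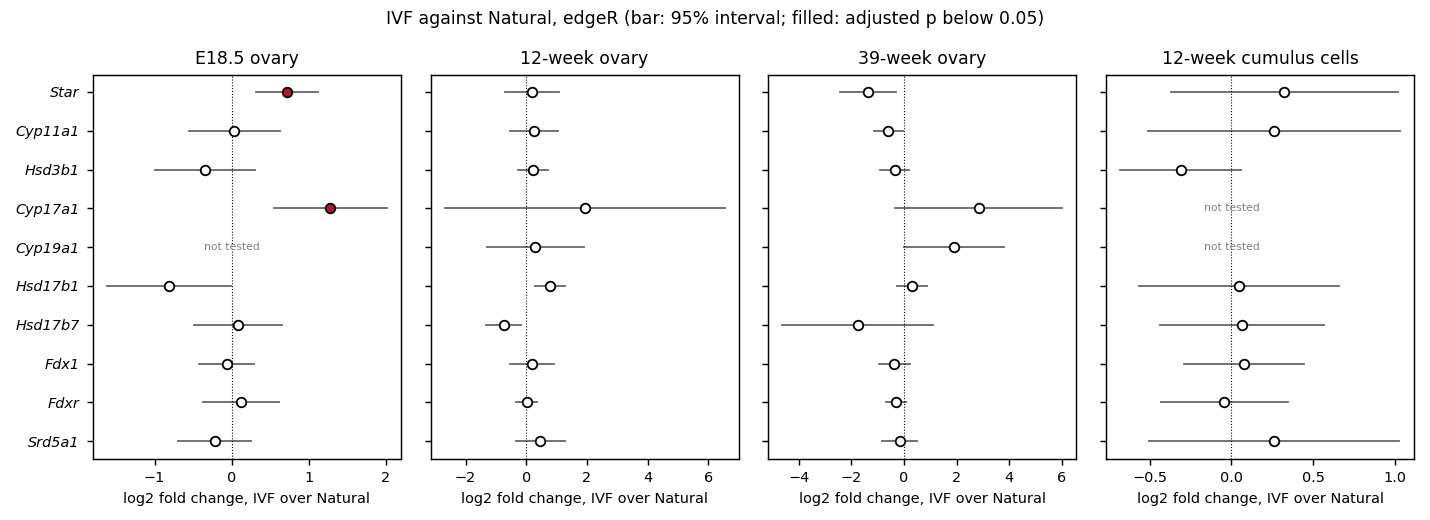
Log2 fold change of each steroidogenesis gene, IVF over Natural, from edgeR in 4 tissues, with 95% intervals. Filled points mark an adjusted p below 0.05, which only Star and Cyp17a1 at E18.5 have, and each panel has its own x axis.

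Whether the IVF difference changed with age was tested in 1 fit of all 29 ovaries. Each age was counted in a table of its own, and adult RNA came from only a part of the ovary. Age and any difference in preparation or sampled part therefore cannot be told apart. Between 39 weeks and E18.5, 1 of 10 genes was called, against 7.95% of all genes and 2.85% lower. For Star the log2 difference of IVF from Natural was 0.72 at E18.5 and -1.37 at 39 weeks in the separate fits, and the difference between the effects in the joint fit was -2.06 ± 0.58 (SE), with an adjusted p of 0.0294 by edgeR. In the same contrast an unadjusted p below 0.05 was found for 2 of 10 genes and 25.4% of all genes. The call of Star was lost without E18.5 Natural replicate 2, 3 or 4, with adjusted p values of 0.0504, 0.0574 and 0.0534, or without 39-week Natural replicate 5, with 0.0558.
For Hsd17b1 the effects differed by 1.17 between 39 weeks and E18.5 (adjusted p of 0.0971 by edgeR, and 0.0382 without 39-week IVF replicate 1) and by 1.63 between 12 weeks and E18.5 (adjusted p of 0.104 by edgeR and 0.0278 by DESeq2). Between 12 weeks and E18.5, 0 of 10 genes were called by edgeR, as were 0.314% of all genes, and 1 had an unadjusted p below 0.05, as did 14% of all genes. Between 39 and 12 weeks 0 of 10 were called, as were 2.71% of all genes, and 2 had an unadjusted p below 0.05, Star with -1.56 and Cyp11a1 with -0.85, as did 20% of all genes.

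Steroidogenesis genes were far higher in 12-week than in E18.5 ovaries in both groups. In Natural 10 of 10 were called higher, against 25.3% of all genes, and in IVF 9 of 10, against 30.8%. Cyp11a1 rose most, by 10.81 in Natural and 11.06 in IVF on the log2 scale, followed by Star with 8.84 and 8.34 and Hsd3b1 with 7.74 and 8.33. Hsd17b1 rose by 6.11 and 7.74, Cyp19a1 by 6.08 and 7.12, Fdx1 by 5.83 and 6.11, Fdxr by 3.97 and 3.87, and Srd5a1 by 2.3 and 3.01. The rise of Cyp17a1 was 7.35 in Natural and 8.01 in IVF, but without 12-week Natural replicate 4 the Natural value was 1.88 with an adjusted p of 0.489 by edgeR. Hsd17b7 was called in Natural alone, at 2.41 with an adjusted p of 0.0461 by edgeR, beside 1.62 and 0.0954 in IVF, and the Natural call was lost on leaving out any of 13 of the 29 ovaries. The medians were 6.10 and 7.43, beside 0.01 over all genes in each group. Other steroid enzymes (16 of 21 higher in Natural, 18 of 21 in IVF), cholesterol genes (12 of 15 in both) and regulators (12 and 13 of 19) were called higher too, and none of them lower.

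Between 12 and 39 weeks Natural and IVF ovaries were compared on their own. In Natural 2 of 10 genes were called higher, against 10% of all genes. Star rose by 1.22 ± 0.42 (SE) on the log2 scale, with an adjusted p of 0.0366 by edgeR, and Hsd17b7 by 3.24 ± 0.99 (SE), with 0.0203. In a fit of the 19 adult ovaries alone these adjusted p values were 0.0921 for Star and 0.0600 for Hsd17b7, and Hsd3b1 and Fdxr were called higher instead with 0.0444 and 0.0479, where 10.2% of all genes were called higher. The call of Star was lost without 12-week Natural replicate 1, 2 or 3 or 39-week Natural replicate 1, 3 or 5, and that of Hsd17b7 without 12-week Natural replicate 1 or 2 or 39-week Natural replicate 5. Without single ovaries Hsd3b1 (E18.5 IVF replicate 3, E18.5 Natural replicate 3 or 4, 12-week Natural replicate 4 or 39-week IVF replicate 1), Fdxr (E18.5 Natural replicate 1 or 4 or 39-week IVF replicate 1) and Srd5a1 (39-week Natural replicate 5) were called higher as well, with adjusted p values down to 0.0297, 0.0372 and 0.0408 by edgeR. In IVF 0 of 10 were called by edgeR, where 6.19% of all genes were, and 2 had an unadjusted p below 0.05, Hsd17b7 with 2.25 and Hsd17b1 with -0.60, as did 21.1% of all genes. Hsd17b7 was called without 39-week IVF replicate 1, with an adjusted p of 0.0469 by edgeR. The differences between these changes are those given above between 39 and 12 weeks. In Natural every oviduct and epithelium marker was called lower at 39 weeks. Ovgp1 differed by -7.32 and Epcam by -3.03, with adjusted p of 0.0107 and 0.00138 by edgeR. Luteal Prlr (1.21) and Parm1 (1.19) were called higher, with adjusted p of 0.0110 and 0.0190 by edgeR. The other luteal markers were not called. In IVF no oviduct or luteal marker was called. The part of cells with these markers in these changes was not tested.

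The spread among adult ovaries differed by gene. Between the lowest and the highest of the 9 ovaries at 12 weeks Cyp17a1 differed 1674-fold, Cyp19a1 9.88-fold, Star 3.73-fold, Cyp11a1 3.29-fold, Hsd3b1 2.23-fold and Fdxr 1.72-fold. Among the 10 ovaries at 39 weeks it was 381-fold for Cyp17a1, 92.4-fold for Hsd17b7, 38.6-fold for Cyp19a1, 19.3-fold for Star and 2.05-fold for Fdxr. Cyp17a1 fell into separate sets: 9 of the 19 adult ovaries held 0.857 to 5.04 CPM and 10 held 23.6 to 1435 CPM, with none between. The line at 10 CPM was drawn after the values were seen. The high set held 1 of 4 Natural and 3 of 5 IVF ovaries at 12 weeks, and 2 of 5 and 4 of 5 at 39 weeks.

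**Figure D4:**
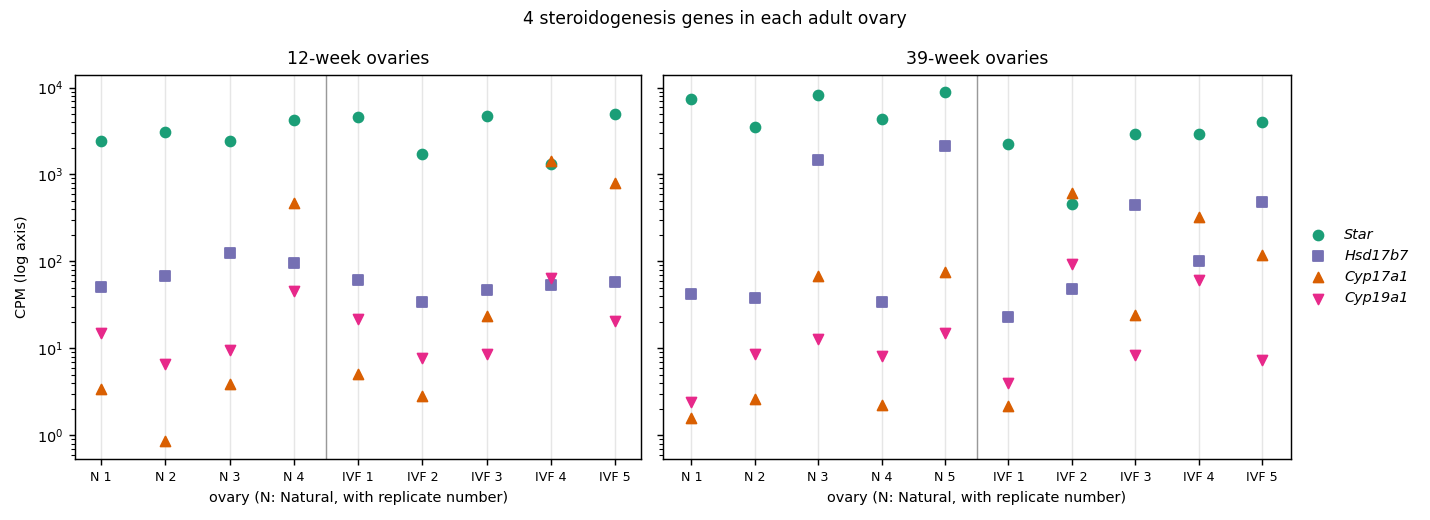
CPM of Star, Hsd17b7, Cyp17a1 and Cyp19a1 in each of the 19 adult ovaries on a log axis, with Natural (N) and IVF replicates side by side at 12 and 39 weeks. Cyp17a1 spans 0.857 to 1435 CPM, and Hsd17b7 is highest in 39-week Natural replicates 3 and 5.

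How the genes of the early steps varied within a group differed from pair to pair. After each group's mean was subtracted, Pearson's r of log2 CPM over the 19 adult ovaries was 0.86 for Cyp11a1 with Fdx1, 0.78 for Hsd3b1 with Fdx1, 0.65 for Cyp11a1 with Hsd3b1 and 0.57 for Star with Cyp11a1. It was 0.38 for Star with Hsd3b1, and for Fdxr it was 0.17 with Star, 0.34 with Cyp11a1 and 0.42 with Fdx1. These are descriptions over ovaries that share library scaling.
Against marker levels 40 relations were computed, and p values were adjusted over them by Benjamini-Hochberg. Permutations moved values freely over both groups after each group's mean was subtracted, so the permutation p values of these relations are approximate. Here exact means only that all orders were counted. With the luteal markers, Cyp11a1 had r = 0.86 at 12 weeks over 9 ovaries (exact permutation p = 0.00176, adjusted 0.0176) and rho = 0.93 (exact permutation p = 0.00075, adjusted 0.0150). Fdx1 had r = 0.91 (exact permutation p = 0.00151, adjusted 0.0176) and rho = 0.87 (exact permutation p = 0.00451, adjusted 0.0451). Hsd3b1 had r = 0.81 (exact permutation p = 0.00745, adjusted 0.0596) and rho = 0.88 (exact permutation p = 0.00308, adjusted 0.0410). At 39 weeks Star had r = 0.90 over 10 ovaries (permutation p = 9e-05, adjusted 0.0018) and rho = 0.81 (permutation p = 0.00749, adjusted 0.0565). Without the 2 ovaries farthest from the median marker level r was 0.89 for Cyp11a1, 0.76 for Fdx1, 0.82 for Hsd3b1 and 0.81 for Star, and no relation had an adjusted permutation p below 0.05. Cyp17a1 with the granulosa markers at 39 weeks also had an adjusted permutation p below 0.05, but no pooled r is given, since its ovaries fall into separate sets. The high set at 39 weeks is the one that holds 6 ovaries, 2 Natural and 4 IVF. Within it, with the means of these groups subtracted, Cyp17a1 had r = 0.74 with the granulosa markers (exact permutation p = 0.0806, adjusted over 2 relations 0.161) and rho = 0.54 (exact permutation p = 0.297, adjusted 0.594). With the luteal markers r was -0.32 (exact permutation p = 0.497, adjusted 0.497) and rho -0.26 (exact permutation p = 0.658, adjusted 0.658). Without the 2 ovaries farthest from the median marker level r was 0.40 with the granulosa and 0.73 with the luteal markers over 4 ovaries. These relations were computed after the values were seen, in ovaries picked by their Cyp17a1 level.

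In cumulus cells at 12 weeks no steroidogenesis gene was called. Of 8 genes tested 0 were called, and DESeq2 called 0, against 0.00973% of all genes called by edgeR and 0.455% by DESeq2. An unadjusted edgeR p below 0.05 was found for 0 of the 8 and for 6.08% of all genes. Cyp17a1 had 0 counts in all 10 libraries, which allows up to 0.12 CPM over the unscaled total of the Natural libraries and 0.133 CPM over that of the IVF libraries (3 counts, counting error only). Cyp19a1 had 0 to 22 counts and at most 6.20 CPM, and neither was tested. Cumulus expansion markers summed to 346 to 849 CPM in Natural and 413 to 944 CPM in IVF, and oocyte markers to at most 31.0 CPM.

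The 10 cumulus libraries carry 2 kinds of name, coded and descriptive, and the fit held the kind as a covariate. The 4 descriptive libraries were matched to conception only, so they are given without replicate numbers. Each pair of them was the closest of its group in counts, with a chi-square per gene of 6.88 and 10.4 beside 18.6 for the next pair, and whether they are separate animals was not given. Of the libraries 3 Natural and 3 IVF are coded, and 2 and 2 are descriptive. A coded Natural library, replicate 5, shares part of its name with IVF oocytes, and without it 0 of 8 genes were called by edgeR, as was so on leaving out any other library.

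Cyp11a1 showed how the kinds differed. Coded libraries had 6158, 11210 and 13703 CPM in Natural and 6718, 9631 and 4174 CPM in IVF, whereas descriptive libraries had 5919 and 5979 CPM in Natural and 17683 and 18404 CPM in IVF. The coded groups overlapped and the descriptive groups did not. Over all 10 libraries the log2 difference was 0.26 ± 0.37 (SE), with an adjusted p of 0.957 by edgeR.
For Star, coded libraries had 142, 120 and 191 CPM in Natural and 152, 52.5 and 141 CPM in IVF, and descriptive libraries had 74.4 and 64.3 against 179 and 194 CPM. The coded groups again overlapped and the descriptive groups did not. Its log2 difference over all libraries was 0.32 ± 0.33 (SE).
Hsd3b1 had 11107, 8646 and 11871 CPM in coded Natural libraries and 10912, 9887 and 6692 CPM in coded IVF libraries. Descriptive libraries had 16202 and 15643 CPM in Natural and 11336 and 11654 CPM in IVF. IVF was lower on average in both kinds, and the log2 difference was -0.31 ± 0.18 (SE), with an adjusted p of 0.848 by edgeR.

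Within the descriptive libraries 7 of the 8 genes did not overlap between the groups, as was so for 46.4% of all genes, and 6 were higher in IVF. Within the coded libraries 1 of 8 did not overlap, Srd5a1, beside 9.6% of all genes, and 2 were higher in IVF. Over all 10 libraries 0.759% of all genes did not overlap. The direction differed between coded and descriptive libraries for Star (-0.50 and 1.42 on the log2(CPM + 1) scale), Cyp11a1 (-0.60 and 1.60), Hsd17b1 (-0.62 and 0.90), Hsd17b7 (-0.18 and 0.58), Fdxr (-0.35 and 0.38) and Srd5a1 (0.84 and -0.58). It was the same for Hsd3b1 (-0.22 and -0.47) and Fdx1 (0.14 and 0.04). An exact test cannot go below 0.1 with 3 against 3 or 0.333 with 2 against 2, so neither kind can reach 0.05 on its own. In the wider lists 0 of 14 other enzymes, 0 of 15 cholesterol genes and 0 of 16 regulators were called, and the largest log2 differences were Hsd3b2 at -1.05, Stard5 at -0.41 and Fshr at -0.46.

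**Figure D5:**
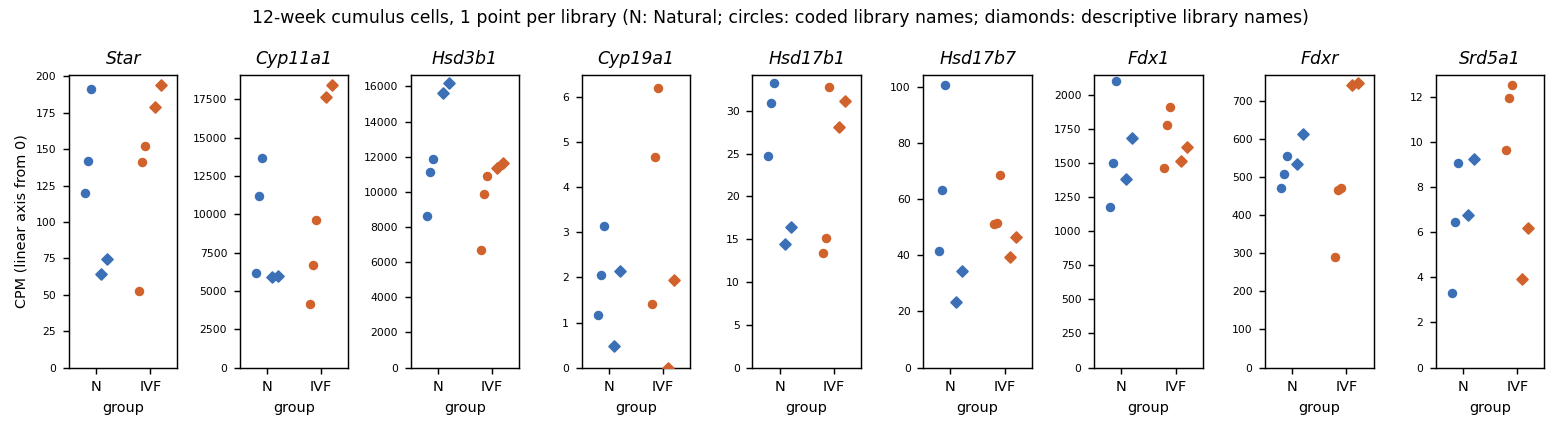
CPM of each steroidogenesis gene but Cyp17a1 in each cumulus cell library, on linear axes from 0, with Natural and IVF side by side, circles for coded and diamonds for descriptive library names. The diamonds of Star and Cyp11a1 are higher in IVF than in Natural, whereas the circles overlap.

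In PGCs some genes of the pathway had few or no counts, whereas others were measured in every library. In PGCs 5 of the 10 genes passed the filter, and 0 were called by edgeR, as were 0% of all genes, with 0 called by DESeq2. None had an unadjusted edgeR p below 0.05, beside 2.73% of all genes. Hsd17b7 was at 33.7, 33.2, 20.0 and 22.0 CPM in Natural and at 25.2, 31.8, 34.2, 26.1 and 32.2 CPM in IVF. Fdx1 and Fdxr reached at most 24.7 and 20.5 CPM, and the groups overlapped for all of these. Cyp11a1, Hsd3b1, Cyp17a1, Cyp19a1 and Hsd17b1 had at most 12 counts in a library.

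In 12-week oocytes the measured genes were a different set. Counts were summed over 5 sets of 5 to 8 oocytes in each group, which share part of their library name, and 9 genes were tested. Of these 0 were called by edgeR and 0 by DESeq2, where 0.0277% and 0.28% of all genes were, and 1 had an unadjusted p below 0.05 in edgeR, as did 6.67% of all genes. The median over single oocytes was 118 CPM in Natural and 95.8 CPM in IVF for Hsd17b7, 48.5 and 52.1 CPM for Fdx1, and 42.6 and 45.9 CPM for Cyp19a1. Cyp19a1 had counts in 35 of 36 Natural and 40 of 40 IVF oocytes, whereas Cyp17a1 had counts in 1 oocyte of each group.
Srd5a1 had 0.479, 0.920, 0.437, 0.432 and 0.862 CPM in the Natural sets and 1.21, 0.824, 2.51, 1.63 and 1.11 CPM in the IVF sets, from 8 to 80 counts. Of the 5 IVF sets 4 lay above all Natural sets. Its log2 difference was 1.20 ± 0.42 (SE), with an adjusted p of 0.699 by edgeR and an exact permutation p of 0.0238.
Single oocytes ranged from 0.345 to 577 CPM in Cyp11a1 and from 0.345 to 330 CPM in Hsd3b1. Over the 76 oocytes Spearman's rho was 0.78 for Hsd3b1 with Fdxr, 0.70 for Cyp11a1 with Hsd3b1 and 0.64 for Cyp11a1 with Fdxr, as a description over oocytes that share sets and depth. Granulosa markers summed to 3.78 to 216 CPM in the same oocytes, and their part was not tested.

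Oocytes at 39 weeks were not tested, since no source used here ties them to animals. Counts were summed over 9 Natural and 10 IVF oocytes and divided by their summed totals without TMM scaling. Cyp19a1 was then at 32.4 CPM (95% exact Poisson interval 31.3 to 33.5) in Natural and 59.4 CPM (58.3 to 60.6) in IVF. Hsd17b7 was at 143 CPM (141 to 145) in Natural and 81.1 CPM (79.7 to 82.4) in IVF. The intervals cover counting error only. Of the 15416 Natural counts of Hsd17b7, 6860 came from oocyte 9. With TMM scaling Hsd17b7 was at 254 CPM in that oocyte, beside at most 132 CPM in the other Natural oocytes. Medians over single oocytes, also with TMM scaling, were 19.0 CPM per kb in Natural and 16.5 in IVF for Hsd17b7. For Cyp19a1 they were 7.51 and 11.8 CPM per kb. Cyp17a1 had counts in 1 Natural and 2 IVF oocytes.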

How the data were processed

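The authors deposited 7 tables of read counts per gene, not normalized, for 143 libraries. Per the submitters' processing notes, reads were trimmed with Trimmomatic 0.32, aligned to mm10 with STAR 2.3.0e and counted with featureCounts 1.5.0, and for the low-input libraries the study's methods name trimgalore; whether counting used strand was not given in the sources used here. Of the gene names of ovaries, 27 had turned into numbers.

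Groups came from the labels. IVF was compared with Natural within each table by edgeR 4.0.16 in R 4.3.3 (TMM, filterByExpr, quasi-likelihood test, Benjamini-Hochberg over all genes, threshold 0.05), and ages in 1 fit of 29 ovaries. Exact permutation tests used log2(CPM + 1) and were 2-sided. Alternatives were DESeq2 1.42.0, its size factors, other low-count filters, a replicate block and leaving out each library. The tests were checked on simulated data.

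The 10 genes and all lists were chosen with earlier results of these data known. All 10 are named throughout, with those genes of 3 pathway lists and the marker lists that were called or, failing that, differed most, and the 5 genes most like Star, Cyp19a1 and Cyp17a1, of which 1 is not reported here. Nothing says that all replicates are separate animals, so p values measure the spread between these libraries. CPM rest on counts, and a low count limits precision.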

Additional observations from a re-analysis of the deposited data

Results flagged for a closer look

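Dixon's criterion for a value that stands apart was applied to CPM on a linear scale. Chance alone meets it in about 1 group in 20 only where values are normally distributed. CPM with low or absent counts need not be, so the number of values found cannot be set against that rate. In 122 groups of 4 to 10 values, 15 values of the steroidogenesis genes stood apart from the rest of their group by this criterion. In ovaries these were Star in E18.5 Natural replicate 3 at 5.39 CPM, below the next value of 7.35, Cyp17a1 in 12-week Natural replicate 4 at 469 CPM, Cyp19a1 in 12-week IVF replicate 4 at 65.3 CPM and Hsd17b1 in 39-week IVF replicate 1 at 83.4 CPM. In PGCs Fdxr was low in IVF replicate 1 at 9.33 CPM. In 12-week oocyte sets Cyp11a1 was high in IVF set 3 at 63.5 CPM and Fdxr in Natural set 5 at 12.4 CPM.

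The other 8 were single oocytes at 39 weeks. In IVF these were Cyp11a1 in oocyte 6 at 78.3 CPM and, all in oocyte 10, Hsd3b1 at 215.8 CPM, Hsd17b1 at 5.91 CPM and Srd5a1 at 4.51 CPM. In Natural they were Cyp17a1 in oocyte 4 at 1.70 CPM, Star in oocyte 6 at 13.2 CPM, Fdx1 in oocyte 8 at 99.4 CPM and Hsd17b7 in oocyte 9 at 254 CPM. Oocyte 4 was the only Natural oocyte with counts of Cyp17a1, so its value meets the criterion by construction.

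For Star the IVF difference itself differed between ages: the effect at 39 weeks minus that at E18.5 was -2.06 on the log2 scale in edgeR's fit of all ovaries.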

How the results depend on the processing

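Of 3167 values of single steroidogenesis genes under other settings, 3009 kept their direction and their side of the threshold, and no called value changed sign. Most of these values belong to genes that were not called, so this share does not measure how firm the calls were. At E18.5 the count of genes called fell from 2 to 0 with no filter on low counts (adjusted p of 0.0803 for Star and 0.122 for Cyp17a1 by edgeR), to 1 with at least 10 counts in every ovary, and to 0 without the 2 IVF ovaries lowest in oocyte markers, a setting chosen after seeing the data. Leaving out single ovaries gave 0 to 2. The cause was not tested. At 39 weeks DESeq2 called 1 gene where edgeR called 0. For the differences between ages, DESeq2 called 1 between 12 weeks and E18.5 where edgeR called 0, and leaving out single ovaries gave 0 to 2 between 39 weeks and E18.5, 0 to 4 for the Natural change from 12 to 39 weeks and 0 to 1 for the IVF change. Of the correlations 4 had an adjusted permutation p below 0.05, and 0 without the 2 farthest ovaries.

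Natural and IVF ovaries and PGCs share replicate numbers. Deviations of like-numbered samples correlated at -0.36 to 0.54 and not above 0.1 in every pair, and the main fits left the number out. In 39-week ovaries the correlations ran from -0.01 to 0.40 and in PGCs from -0.07 to 0.54. With so few pairs it cannot be told whether like-numbered samples share more than a number. With the replicate block 0 genes were called at E18.5 (adjusted p of 0.244 for Star and 0.246 for Cyp17a1 by edgeR), and 3 of all genes were called. For cumulus cells, no paired analysis was possible because the libraries with descriptive names were matched to their group only, and the coded libraries of both groups share fewer than 2 numbers. Low counts of Cyp17a1 and Hsd17b1 at E18.5 limit what could be detected there.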

Other observations

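Over the 19 adult ovaries, with each group's mean subtracted, the log2 CPM of 16723 genes were compared with those of 3 steroidogenesis genes by Pearson's r, as a description. Among the genes most like Star were Dhcr7 (0.95), Avpi1 and Gm13201 (both 0.93) and Cst12 (0.92). Dhcr7 encodes the enzyme of the last step of cholesterol synthesis. Most like Cyp19a1 were Cmtm2a (0.92), Itih2, Smim10l2a and Ush1g (each 0.89) and Trib2 (0.88). For Cyp17a1 the same ranking put Oca2, Rgs13, Seh1l, Cdip1 and Il17ra first, and no coefficient is given, since its ovaries fall into separate sets.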
